A study of Mus musculus with 2 samples.

Results

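The Mir29 and Mir101 genes are microRNA genes known for restraint of fibrosis in the heart. They were taken by symbol from the GENCODE M21 annotation of the deposited gene identifiers, as Mir29a, Mir29b-1, Mir29b-2 and Mir29c of the Mir29 family and Mir101a and Mir101b of the Mir101 family. That made 6 of the 2202 annotated microRNA genes, and all 6 were present in both deposited tables. The tables came from microRNA sequencing, with RNA shorter than 30 nt selected, of hearts from 4-day-old female B6CASTF1/J mice, a first-generation hybrid of a C57BL/6 and a CAST parent. There were 2 libraries in 1 group, with no allele, agent or genotype named beyond the strain. Replicate 1 was labelled as animal 3 and replicate 2 as animal 4, and the donor entry was the same for both. No other age, sex, tissue or treatment was analysed here, so the data bear on how abundant these genes were and how far the 2 libraries differed.

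A microRNA gene is transcribed into a hairpin, from which a short mature strand is cut and loaded into an Argonaute protein. The mature strand pairs with messenger RNAs mainly through its seed, the bases near its 5′ end, and lowers their translation or stability. The miR-29 microRNAs are known for repressing collagen, elastin and fibrillin transcripts in cardiac fibroblasts, and miR-101 is known for restraining fibroblast growth, with Fos and Tgfbr1 among its described targets.

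The mature strands from the 3′ side of the hairpins are the ones both families are known for, and they are shown because they decide which messenger RNAs each gene can pair with. All 6 genes matched RefSeq entries (GRCm38.p6). Capitals mark the seed, bases 2 to 8 from the 5′ end.
miR-29a-3p: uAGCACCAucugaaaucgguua
miR-29b-3p: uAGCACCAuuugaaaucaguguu
miR-29c-3p: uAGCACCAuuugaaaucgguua
miR-101a-3p: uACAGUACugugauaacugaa
miR-101b-3p: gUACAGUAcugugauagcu
The 3 miR-29 strands shared 1 seed, AGCACCA, which no other of the 1738 mature entries in the table held. With positions counted from the 5′ end, miR-29c-3p differed from miR-29a-3p by the substitution C10U alone. The 23-nt miR-29b-3p was identical from Mir29b-1 and Mir29b-2, and differed from miR-29c-3p by G18A, U21G and A22U over the 22 positions that both have. The annotated miR-101b-3p began 1 base before miR-101a-3p, so that its seed was shifted by 1 base. With that offset, miR-101b-3p differed from miR-101a-3p by A16G over the 18 nt compared. Mature seeds ACAGUAC and UACAGUA each occurred in 1 entry of the table. The deposited counts are per hairpin gene, so they do not tell which strand or which 5′ end was read.

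The hairpins are shown because a read that matches more than 1 place was counted for no gene. Capitals mark bases that lie in a 20-nt window found in another annotated microRNA gene.
Mir29a: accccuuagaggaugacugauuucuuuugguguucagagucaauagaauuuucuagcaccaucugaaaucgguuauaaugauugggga
Mir29b-1: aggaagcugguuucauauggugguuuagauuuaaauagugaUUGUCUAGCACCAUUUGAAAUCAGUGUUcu
Mir29b-2: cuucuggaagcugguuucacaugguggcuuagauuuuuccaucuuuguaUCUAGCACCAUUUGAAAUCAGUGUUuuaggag
Mir29c: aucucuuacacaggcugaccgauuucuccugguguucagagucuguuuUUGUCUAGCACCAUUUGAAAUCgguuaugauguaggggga
Mir101a: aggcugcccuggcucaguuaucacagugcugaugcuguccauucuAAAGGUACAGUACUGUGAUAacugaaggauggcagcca
Mir101b: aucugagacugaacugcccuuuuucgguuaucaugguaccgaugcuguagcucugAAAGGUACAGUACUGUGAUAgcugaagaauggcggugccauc
Mir29a shared 0 of its 69 windows, so no stretch of 20 nt or more matched another annotated microRNA gene exactly. Matches with a mismatch were not searched, and miR-29c-3p differs from miR-29a-3p by 1 base. Mir29b-1 shared 9 of 52 windows, with Mir29b-2 and Mir29c. Mir29b-2 shared 6 of 62 and Mir29c 3 of 69, each with Mir29b-1. The longest stretch common to Mir29b-1 and Mir29b-2 was 25 nt, longer than the whole mature miR-29b-3p, so a read of that mature strand fitted both genes equally. By contrast, the whole mature miR-29c-3p was found in Mir29c alone among annotated microRNA genes. Mir101a and Mir101b shared 1 window each, with each other, and the whole mature miR-101a-3p and miR-101b-3p were each found in 1 of these genes. The search covered annotated transcripts, not the rest of the genome. Differences of the CAST parent from the reference sequence were not examined.

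**Figure D1:**
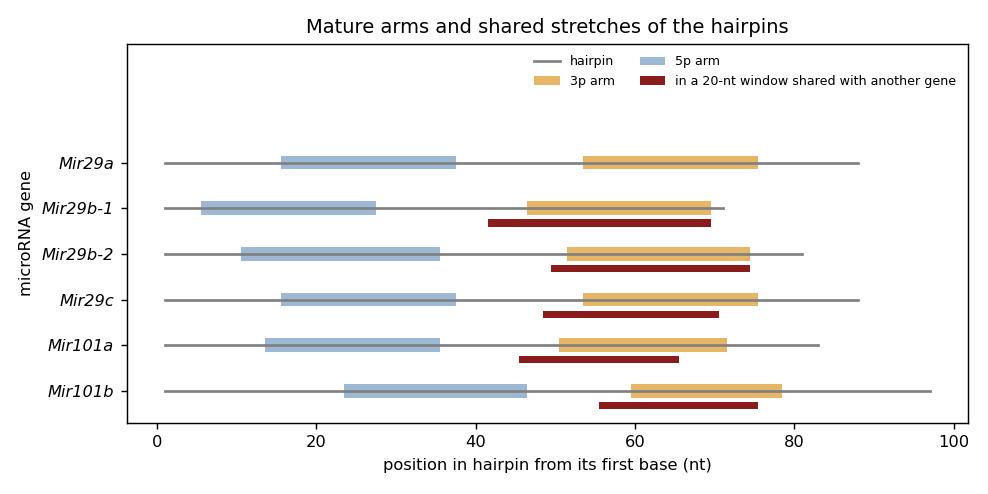
Each row is the hairpin of 1 gene (grey line), with the position in nt on the horizontal axis; boxes mark the mature 5p and 3p arms and the dark bar the bases in a 20-nt window shared with another annotated microRNA gene. Mir29a has no such bar, and in the other 5 genes the bar lies over the 3p arm, covering the whole arm in Mir29b-1 and Mir29b-2.

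Another gene of the Mir101 family, Mir101c (ENSMUSG00000106183.1, mm10, chr9:3038669-3038743, minus strand), had 0 counts in both libraries. Its annotated mature strand, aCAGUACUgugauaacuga, with the seed in capitals, is 19 nt long and lies whole within the Mir101a hairpin. A count of 0 allowed up to 3 counts, or 0.467 CPM in replicate 1 and 0.530 CPM in replicate 2 (CPM, own-strand counts scaled to 1e6 per library). Reads of that strand alone could not have been assigned to either gene.

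In the genome the Mir29 genes form a pair of clusters and the Mir101 genes stand alone (mm10, GENCODE M21). Mir29a (ENSMUSG00000065610.1, chr6:31062660-31062747, minus strand) lies 275 bp from Mir29b-1 (ENSMUSG00000065604.2, chr6:31063023-31063093, minus strand), which overlaps an exon of the lincRNA Gm27019. Mir29b-2 (ENSMUSG00000065412.3, chr1:195037040-195037120, plus strand) lies 426 bp from Mir29c (ENSMUSG00000065548.1, chr1:195037547-195037634, plus strand). Both overlap exons of the noncoding gene A330023F24Rik on the same strand and of Cd46, the gene of a complement regulator, on the opposite strand. Mir101a (ENSMUSG00000065451.1, chr4:101346945-101347027, minus strand) overlaps an exon of the lincRNA E130102H24Rik. Mir101b (ENSMUSG00000065556.1, chr19:29135279-29135375, plus strand) lies in an intron of Rcl1, a gene of ribosomal RNA processing, on the same strand. All 6 genes had 0 counts on the opposite strand in both libraries.

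The libraries held 6417302 own-strand counts in replicate 1 and 5662222 in replicate 2, with 39.6% and 43.2% of all reads multi-mapped and in no gene's count. Detection was set at 10 counts or more in both libraries, which 373 genes met, 5 of the 6 Mir29 and Mir101 genes among them. The heart label was checked against cardiac muscle markers, Mir208a, Mir208b and Mir499, which summed to 20993 CPM in replicate 1 and 19146 CPM in replicate 2. The 3 brain markers, Mir124a-1, Mir124a-2 and Mir9-1, were at 0 in both libraries. Whether these brain markers share windows with other microRNA genes was not examined. Reads that fit several genes would not appear under any of them, so these 0 counts do not tell whether brain RNA was present. The libraries differed in other cell type markers, whose values stand beside the comparison of the hearts.

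The Mir29 and Mir101 genes were a small part of the heart's counted microRNAs, with most of their counts in 2 genes, Mir101b and Mir29a. Together the 6 genes held 3495 and 3541 counts in replicates 1 and 2, which was 545 and 625 CPM, a mean of 585 ± 57.1 CPM (SD, n = 2). That was 0.0585% ± 0.00571 of all own-strand counts. The Mir29 family held 1529 and 1445 counts (247 ± 12.0 CPM) and the Mir101 family 1966 and 2096 counts (338 ± 45.1 CPM). The Mir101 family lay above the Mir29 family in both libraries, with 306 against 238 CPM in replicate 1 and 370 against 255 CPM in replicate 2. Its share of the counts of both families was 56.3% in replicate 1 and 59.2% in replicate 2, with overlapping 95% Clopper-Pearson intervals (54.6 to 57.9 and 57.6 to 60.8). Identical copies and multi-mapped reads limit this order to reads that matched 1 place.

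Mir101b was the most abundant of the 6, with 1665 counts in replicate 1 and 1626 in replicate 2, or 259 and 287 CPM (273 ± 19.6 CPM, SD, n = 2), place 127 of all genes by mean CPM. Mir29a followed with 1308 and 1107 counts, or 204 and 196 CPM (199.7 ± 5.88 CPM), place 144. Both lay above the median of detected genes, 75.2 CPM, in each library. The 95% Poisson counting intervals of Mir101b lay just apart (247 to 272 and 273 to 301 CPM), with replicate 2 higher, and those of Mir29a overlapped (193 to 215 and 184 to 207 CPM). Mir101a had 301 and 470 counts, or 46.9 and 83.0 CPM (65.0 ± 25.5 CPM), place 195. Mir29c had 149 and 282 counts, or 23.2 and 49.8 CPM (36.5 ± 18.8 CPM), place 218. For both of these, too, replicate 2 lay above replicate 1 and the counting intervals did not overlap. The intervals were 41.8 to 52.5 against 75.7 to 90.9 CPM for Mir101a, and 19.6 to 27.3 against 44.2 to 56.0 CPM for Mir29c.

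The genes that make miR-29b had the lowest counts. Mir29b-1 had 64 and 42 counts, or 9.97 and 7.42 CPM (8.70 ± 1.81 CPM, SD, n = 2), place 292. Mir29b-2 had 8 and 14 counts, or 1.25 and 2.47 CPM (1.86 ± 0.867 CPM), place 389, and did not reach 10 counts in replicate 1. For Mir29b-2 the counting intervals were 0.538 to 2.46 CPM and 1.35 to 4.15 CPM, which overlapped. Since reads of the whole mature miR-29b-3p match both genes, the low counts of these genes do not show a low level of the mature microRNA. How many of the multi-mapped reads were miR-29b-3p was not tested.

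**Figure D2:**
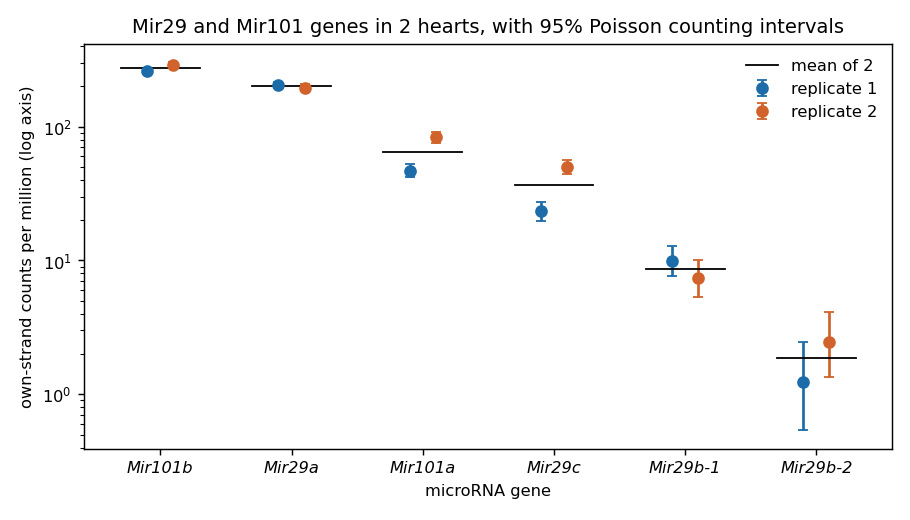
Own-strand CPM (log axis) of each gene in replicate 1 (blue) and replicate 2 (orange), with 95% Poisson counting intervals and a line at the mean of 2. Mir101b and Mir29a lie at 196 to 287 CPM in both libraries, Mir101a and Mir29c lie higher in replicate 2, and the miR-29b genes lie at or below 9.97 CPM.

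The order of mean levels was Mir101b, Mir29a, Mir101a, Mir29c, Mir29b-1 and Mir29b-2, and it was the same per hairpin length. Mir101b lay 1.27-fold above Mir29a in replicate 1 and 1.47-fold in replicate 2. Mir29a lay 4.35-fold and 2.36-fold above Mir101a. Mir101a lay 2.02-fold and 1.67-fold above Mir29c in the same libraries, but the ranges of these neighbours over the libraries overlapped (46.9 to 83.0 CPM against 23.2 to 49.8 CPM). Mir29c lay above Mir29b-1 by 2.33-fold in replicate 1 and 6.71-fold in replicate 2, and Mir29b-1 above Mir29b-2 by 8.00-fold and 3.00-fold. The order of the 6 genes therefore was the same in both hearts.

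Shares within pairs of genes do not depend on how a library is scaled. They do depend on which reads could be counted. Mir29a shared 0 windows with other microRNA genes, while reads of the whole mature miR-29b-3p match both miR-29b genes. Shares that involve a miR-29b gene therefore do not show the balance of the mature microRNAs. Within the chromosome 6 cluster, Mir29a held 95.3% of the counts with Mir29b-1 in replicate 1 (94.1 to 96.4, Clopper-Pearson 95% limits, as for the shares that follow) and 96.3% in replicate 2 (95.1 to 97.4). In the chromosome 1 cluster, Mir29c held 94.9% of the counts with Mir29b-2 (90.2 to 97.8) and 95.3% (92.2 to 97.4). Within each cluster the intervals of the hearts overlapped. Overlap of intervals is no test of a difference, and none was run on the shares. Mir29b-1 held 88.9% of the counts with Mir29b-2 in replicate 1 (79.3 to 95.1) and 75.0% in replicate 2 (61.6 to 85.6), from 72 and 56 counts in all, and these intervals overlapped too.

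Between the clusters the shares differed. The chromosome 6 cluster had 1372 and 1149 counts and the chromosome 1 cluster 157 and 296. Thus the chromosome 6 cluster held 89.7% of Mir29 counts in replicate 1 (88.1 to 91.2) and 79.5% in replicate 2 (77.3 to 81.6), intervals that did not overlap. That comparison of clusters was chosen after the values were seen. In the Mir101 family, Mir101b held 84.7% of the counts with Mir101a in replicate 1 (83.0 to 86.3) and 77.6% in replicate 2 (75.7 to 79.3), again without overlap. In each family, the gene or cluster with fewer counts thus held a larger share in replicate 2. These intervals cover counting error only, and with 1 library per heart the spread among hearts is not in them.

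**Figure D3:**
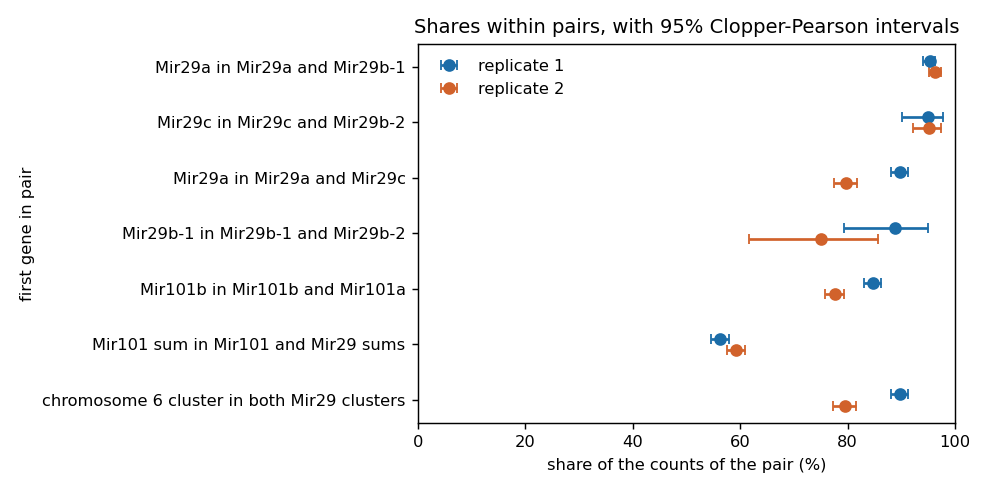
Share (%) of the first gene in the counts of each pair, in replicate 1 (blue) and replicate 2 (orange), with 95% Clopper-Pearson intervals. The intervals overlap within each Mir29 cluster and lie apart for Mir29a with Mir29c, for the chromosome 6 cluster in both clusters and for Mir101b with Mir101a.

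The hearts were compared gene by gene with an exact conditional binomial test, two-sided. Library sizes were scaled by TMM (trimmed mean of M values), and p-values had Benjamini-Hochberg adjustment over all 491 genes with at least 10 counts in the sum. A gene was called with an adjusted p under 0.05 and a difference of over 2-fold. The test compares 2 libraries and takes only counting noise into account. Of the 491 genes, 55 were called (11.2%), 37 of them higher in replicate 2 (7.54%). Of the 6 Mir29 and Mir101 genes, 2 were called, Mir29c and Mir101a, both higher in replicate 2.

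Mir29c was 2.70-fold higher in replicate 2 (counting interval 2.21 to 3.29), a log2 ratio of replicate 1 over replicate 2 of −1.43 (counting SE 0.15, exact adjusted p = 2.93e-23). Mir101a was 2.23-fold higher in replicate 2 (1.93 to 2.57), a log2 ratio of −1.16 (counting SE 0.11, exact adjusted p = 1.75e-27). Neither call was made when edgeR's exact test used a dispersion estimated over both libraries (biological coefficient of variation 0.354), with an adjusted p of 0.904 for Mir29c and 1 for Mir101a. That test called 4 of the 491 genes (0.815%), with 26 at an unadjusted p under 0.05, and none of these 6 genes was among the called. Their lowest unadjusted p in edgeR's exact test was 0.0601, for Mir29c. The differences of Mir29c and Mir101a thus exceeded counting noise, and they did not pass a test with the spread that edgeR estimated between these libraries. That spread was estimated with both libraries as 1 group, so it holds the tested differences. A lack of calls under it therefore does not show that the hearts were alike.

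The other 4 genes were not called. The log2 ratios were −0.48 for Mir101b (counting SE 0.05) and −0.27 for Mir29a (counting SE 0.06), where 1.39-fold and 1.21-fold higher values in replicate 2 stayed under 2-fold although the exact adjusted p was 1.18e-20 and 1.27e-05. Mir29b-2 had a log2 ratio of −1.28 (counting SE 0.62, exact adjusted p = 0.0957) on 22 counts, and Mir29b-1 one of 0.09 (counting SE 0.29, exact adjusted p = 0.862). In all, 5 of the 6 log2 ratios lay below 0, with a median of −0.82, beside a median of −0.02 and 51.9% below 0 over all genes tested. Scaling by total counts moved the median of all genes from −0.02 to 0.31. Under it 61 genes were called, 36.1% of them higher in replicate 2 in place of 67.3%, Mir101a (−0.82) and the uncalled Mir29b-2 (−0.95) came inside 2-fold, and Mir29a turned to 0.06. Mir29c (−1.10) stayed past 2-fold. Relative to the shifted median of all genes, Mir29a still lay on the side of replicate 2.

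**Figure D4:**
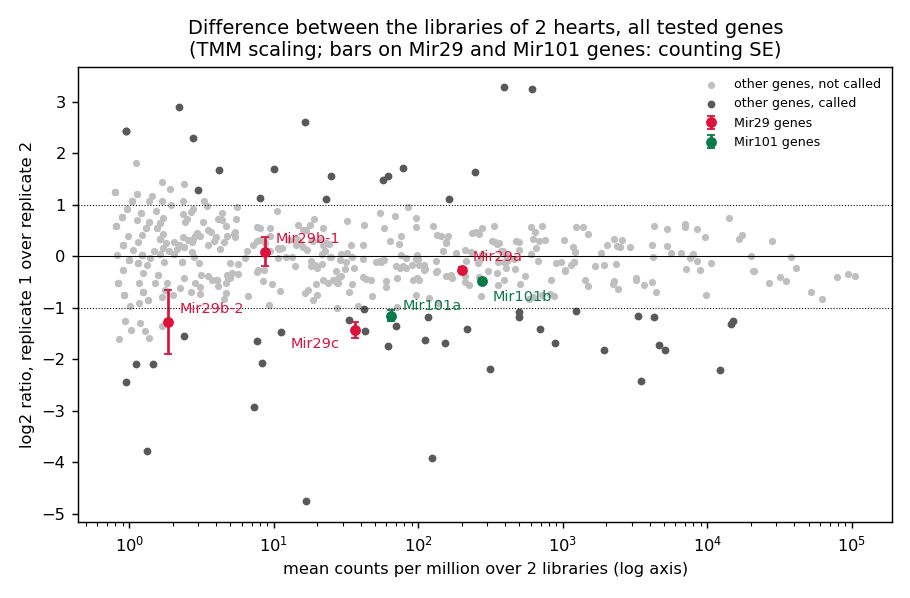
Log2 ratio of replicate 1 over replicate 2 (vertical, TMM scaling) against mean CPM (horizontal, log axis) for the 491 tested genes, with called genes dark, dotted lines at 2-fold, and Mir29 and Mir101 genes coloured with their counting SE. Mir29c and Mir101a lie below the lower dotted line among called genes, Mir29b-2 lies below it with the widest error of the 6, and Mir29a, Mir101b and Mir29b-1 lie inside.

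Marker levels of the cells that a whole heart can hold also moved between the libraries, and their part in these differences was not tested. In bulk tissue, fewer cells of a type and less RNA per cell cannot be told apart. The counts of called markers below stand beside 55 of all 491 genes tested (11.2%). The fibroblast and mesenchyme markers Mir199a-2, Mir199b and Mir214 summed to 5656 CPM in replicate 1 and 3034 CPM in replicate 2, with 0 of 3 called. That fall in the sum was in Mir214 (5595 and 2969 CPM), while Mir199a-2 (20.9 and 22.8 CPM) and Mir199b (40.5 and 42.2 CPM) did not share it. Whether the Mir199 genes share windows with other genes was not examined, and their low counts lack any multi-mapped reads. The erythroid markers Mir451a and Mir144 summed to 489 and 126 CPM, with 2 of 2 called, higher in replicate 1. Epithelial markers summed to 534 and 593 CPM, with 3 of 4 called, higher in replicate 2. The uncalled Mir200c, the most abundant of them, lay the other way (420 and 284 CPM, log2 ratio 0.23). The called erythroid and epithelial markers thus went opposite ways. Leukocyte markers summed to 1133 and 701 CPM, and 2 of 3 were called, Mir142 higher in replicate 1 and Mir223 higher in replicate 2. The uncalled Mir155 held most of that sum (810 and 465 CPM, log2 ratio 0.47). Mir223 lost its call under scaling by total counts (log2 ratio −0.84). The endothelial marker Mir126a had 51829 and 73011 CPM, the smooth muscle markers summed to 47055 and 60331 CPM, and the liver marker Mir122 had 105 and 86.2 CPM, with none of these called. Among cardiac muscle markers 1 of 3 was called, Mir499 (2653 and 7487 CPM, log2 ratio −1.83). The uncalled Mir208a lay the other way (10883 and 6019 CPM, log2 ratio 0.52), and Mir208b slightly so (7457 and 5640 CPM, 0.07). Of all these called markers, edgeR's exact test with estimated dispersion called Mir205 of the epithelial list (adjusted p = 0.000165) and no other, with adjusted p = 0.703 for Mir451a and 0.855 for Mir144.

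Genes whose CPM lay nearest to each member in both libraries were found by the summed absolute difference in log2 CPM over the 2 libraries, which describes likeness of level over 2 points and no more. Nearest to Mir29a were Mir376c (0.13) and Mir24-1 (0.19), and nearest to Mir101b were Mir152 (0.06) and Mir30b (0.12). Mir29c lay nearest to Mir3068 (0.24) and Mir200b (0.45), of which the second is one of the epithelial markers that were higher in replicate 2. Mir101a lay nearest to Mir668 (0.19) and Mir665 (0.30), and Mir29b-1 to Mir450-2 (0.17) and Mir670 (0.21). Mir29b-2 was left out because it had under 10 counts in a library.

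Other microRNA genes known from fibrosis were set beside these families. Those known for its restraint were the miR-133a, miR-30c, miR-24 and miR-26a genes. Over 8 genes they summed to 1173 CPM in replicate 1 and 1169 CPM in replicate 2 (1171 ± 2.81 CPM, SD, n = 2). The 6 Mir29 and Mir101 genes lay below that sum in both libraries. Its small SD holds differences in both directions, such as 19.0 and 229 CPM for Mir26a-2 against 439 and 325 CPM for Mir30c-2. Mir30c-2 (382 ± 81.0 CPM), Mir30c-1 (276 ± 49.7 CPM), Mir24-1 (214 ± 25.0 CPM) and Mir24-2 (162 ± 3.68 CPM) lay around the levels of Mir29a and Mir101b. Mir133a-1 (6.60 ± 1.40 CPM), Mir26a-1 (4.81 ± 0.191 CPM) and Mir133a-2 (1.11 ± 1.07 CPM) lay under 10 CPM, as the miR-29b genes did. Like the miR-29b genes, all 8 have 20-nt windows in common with other genes, and their values lack the multi-mapped reads. Of the 8, 1 was called, Mir26a-2, beside 55 of all 491 genes tested (11.2%). Mir26a-2 had 122 counts in replicate 1 and 1298 in replicate 2 (19.0 and 229 CPM, log2 ratio −3.92). EdgeR's exact test with estimated dispersion also made that call (adjusted p = 0.000629). Under scaling by total counts 2 of the 8 were called, beside 61 of all 491, Mir133a-2 being the other. The median log2 ratio of the 8 was −0.24.

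Genes known for promoting fibrosis had a far higher sum, with 18616 CPM in replicate 1 and 27411 CPM in replicate 2 over 6 genes. Most of that came from Mir208a, a cardiac muscle gene (8451 ± 3439 CPM, SD, n = 2), and from Mir21a, which is raised in activated fibroblasts. Mir208a, Mir21a, Mir34a and Mir155 shared 0 windows of 20 nt with other annotated microRNA genes. Mir125b-1 and Mir125b-2 shared 5 windows each, with each other. All 8 genes known for restraint share windows and lack multi-mapped reads, so the sums of the restraint and promotion lists are not like for like. Mir21a had 33690 and 109355 counts, or 5250 and 19313 CPM. It was the 1 of 6 called, beside 11.2% of all genes tested, and was higher in replicate 2 (log2 ratio −2.21). EdgeR's exact test with estimated dispersion did not call it (adjusted p = 0.241). Mir34a (1028 ± 37.4 CPM), Mir155 (638 ± 244 CPM), Mir125b-1 (405 ± 22.5 CPM) and Mir125b-2 (211 ± 17.8 CPM) were not called. The median log2 ratio of these 6 genes was −0.24. The called genes Mir21a, Mir26a-2, Mir29c and Mir101a, from lists of opposite known roles, were all higher in replicate 2. So were 67.3% of all called genes, and edgeR's exact test called only Mir26a-2 among those named. Uncalled genes of the restraint and promotion lists went both ways. In the promotion list, Mir208a (log2 ratio 0.52) and Mir155 (0.47) were higher in replicate 1. Mir34a (−0.26), Mir125b-1 (−0.22) and Mir125b-2 (−0.51) were higher in replicate 2.

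**Figure D5:**
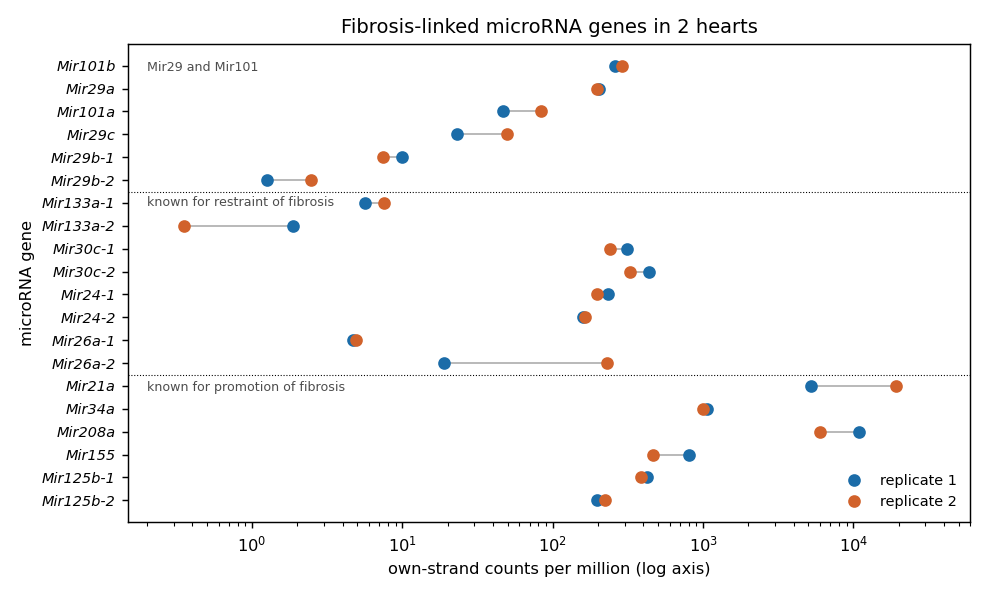
Own-strand CPM (log axis) of the Mir29 and Mir101 genes, of genes known for restraint of fibrosis and of genes known for promoting it, in replicate 1 (blue) and replicate 2 (orange), joined by a line per gene. The longest lines are those of Mir26a-2, Mir133a-2 (12 and 2 counts) and Mir21a, and the Mir29 and Mir101 genes span 1.25 to 287 CPM.

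No messenger RNA was measured, so the possible targets can only be described by sequence. Matches to the seeds were searched on the sense strand of the longest annotated 3′ UTR of 20936 genes, as TGGTGCT for miR-29, GTACTGT for miR-101a and TACTGTA for miR-101b, the last pair overlapping wherever both fall on the same 8 bases. The matrix list held genes known as targets of miR-29 or as parts of the fibrotic matrix, so its matches are no independent evidence. TGGTGCT was found in 13.2% of all 3′ UTRs and in 10 of the 12 matrix genes, with 19 matches, or 1.11 per kb against 0.106 per kb over all. Col5a1, the gene of a fibril collagen chain, held 4 matches in 2498 nt (23.4% of UTRs of 80 to 125% of its length held at least 1). Eln, the elastin gene, held 3 in 1188 nt (11.9% of like-length UTRs), and Col1a1 and Col3a1, the genes of type I and type III collagen chains, held 1 each (13.0% and 9.51% of like-length UTRs). Col1a2 and Sparc held none in these windows. GTACTGT was found in 9.42% of all 3′ UTRs, in 1 of the 12 matrix genes, Eln, and in 4 of 5 genes listed for miR-101, namely Fos, Ezh2, Tgfbr1 and Dnmt3a. TACTGTA was found in 12.3% of all and in 5 of those 5, Mcl1 included. These 5 genes were listed as known targets as well, and long 3′ UTRs often hold such a match. Of like-length UTRs, 46.2% held TACTGTA for Dnmt3a, 29.8% for Tgfbr1 and 20.95% for Mcl1, against 9.08% for Fos and 2.62% for Ezh2. The miR-29 match TGGTGCT was also in 3 of these 5 genes, Fos, Dnmt3a and Mcl1, with 7 matches, or 0.485 per kb. Of these matches, 5 were in the 6696-nt 3′ UTR of Dnmt3a. TGGTGCT was held by 46.4% of like-length UTRs for Dnmt3a, 22.0% for Mcl1 and 8.35% for Fos. By letters alone, then, matches to the miR-29 seed were in genes of both lists.

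The following sites, from the GENCODE M21 transcripts, show the letters that the seeds above would pair with. Capitals mark the match to bases 2 to 8 of miR-29 or miR-101a, and each site has an A after the match.
Col1a1: tgggaaggaatttcTGGTGCTa
Col3a1: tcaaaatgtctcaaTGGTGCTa
Eln: gacctcatcaacgtTGGTGCTa
Fos: atagctatatccatGTACTGTa
Ezh2: tctgaatttgcaaaGTACTGTa
The Col1a1 match begins at base 919 of 1423 in its 3′ UTR and the Col3a1 match at base 235 of 959. The Eln match begins at base 38 of 1188, the Fos match at base 535 of 815 and the Ezh2 match at base 114 of 402. The Fos and Ezh2 sites also hold the shifted miR-101b match, 1 base further on. Fos encodes a growth-response transcription factor and Ezh2 a histone methyltransferase.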

How the data were processed

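The authors deposited 1 table of raw counts per microRNA gene for each library, with columns for both strands, the gene's own strand and the opposite strand, and summary entries that stayed out of library sizes (assigned reads were 44.4% and 42.0% of 14450527 and 13495259). Per the labels, the build was mm10. For the aligner and the counting program, the name is not given in the sources used here. Members, gene lists and tests were chosen with earlier results of these data known, and the named genes are all 6 members, the listed fibrosis genes, the markers and the 2 nearest genes per member.

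The own-strand column was used. CPM was computed over its total. The log2 ratio had 0.5 added to each count, after scaling by TMM (factors 1.12 and 0.891). EdgeR's quasi-likelihood test cannot be fitted between single libraries, so the exact conditional binomial test was used. It was tested on simulated data, and edgeR's exact test and other scalings, filters and columns were tried as alternatives. Intervals are 95% Clopper-Pearson or Poisson and cover counting error only. They take each read as independent, and no molecular identifiers are named. Labels name separate animals but 1 donor entry. The exact binomial p-values take only counting noise into account, and edgeR's exact test adds a dispersion estimated over the same libraries. Neither measures the spread among hearts. The search for shared windows covered GENCODE M21 transcripts on both strands, and no genome sequence was used here. Tools were Python 3.11.15, scipy 1.17.1, pandas 2.3.3, numpy 2.4.6, matplotlib 3.10.9, R 4.3.3, edgeR 4.0.16 and DESeq2 1.42.0.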

Additional observations from a re-analysis of the deposited data

How the results depend on the processing

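With edgeR's exact test and estimated dispersion, 4 genes differed in place of 55, 2 in each direction, and Mir29c (adjusted p = 0.904) and Mir101a (adjusted p = 1) were not called. Scaling by total counts left 22 genes higher in replicate 2 in place of 37 and 39 higher in replicate 1 in place of 18, brought Mir101a to −0.82, inside 2-fold, and turned Mir29a to 0.060. In the other 32 settings of the 6 log2 ratios the direction and the call were the same, although the uncalled Mir29b-2 came inside 2-fold under total counts (−0.95). CPM from the column without strand raised the Mir29 sum from 247 to 308 and the Mir101 sum from 338 to 423, because that column has a smaller total while the members' counts are the same. With all multi-mapped reads added to the total, the sums were 126 and 172 CPM. At least 1 count in each library left 638 genes detected in place of 373. Leaving out either library moved family sums only to the value of the other library (238 to 255 CPM for Mir29, 306 to 370 CPM for Mir101), and with 2 libraries this says nothing about stability. No paired analysis was possible because there is 1 group. The depth limits Mir29b-2, on 8 and 14 counts, the most. Calls rest on 1 library per heart.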
